A study of Mus musculus with 12 samples.

Results

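Keratins are the intermediate filament proteins of epithelial cells. A keratin filament is built from pairs of an acidic type I chain and a basic type II chain, and the pair that is made differs between epithelia. Krt8 and Krt18 are the pair of simple epithelia such as those lining the airways and alveoli, Krt5 and Krt14 belong to the basal layer of stratified epithelia, and Krt4 and Krt13 to the upper layers of stratified linings such as the oesophagus. The keratin genes described here are the 37 of 36254 genes in the deposited table whose name is Krt followed by a number, with or without a letter. The 9 other names that start with Krt, which are keratin-associated proteins, the Krtcap and Krtdap genes and the pseudogene Krt8-ps, were left out.

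RNA was sequenced from 12 samples of mice named C57, in 4 groups of 3 libraries. Control is normal lung per the series description, although its tissue label reads lung tumor like that of every other sample. Model is the orthotopic lung tumour, a tumour that grows in the lung itself, with no amino acid named for it, and in the Taurine and Proline groups such tumours had received the amino acid of that name. The labels give no dose, time, age or tumour line, and nothing says whether the libraries of a group came from separate animals. The p-values therefore cover only the variation among these libraries, which may be technical. The libraries held 56542745 to 69456490 counts. Genes of other tissues separated some tumour libraries before any keratin was compared. The liver gene Alb stood at 25.8 and 32.6 FPKM in Model 1 and Model 2 and at or below 0.0606 FPKM in the other 7 tumour libraries, and it also divided the Control libraries, at 6.07 and 5.26 FPKM in Control 1 and Control 2 and 0.18 in Control 3. The kidney gene Kap stood at 35.6, 32.0 and 35.3 FPKM in Model 3, Taurine 1 and Taurine 2. It lay between 0.871 and 6.81 FPKM in the other tumour libraries and between 0.815 and 5.59 in Control. Model 2 and Taurine 3 held genes of stratified epithelium, and several keratin results that rest on them are given with and without them.

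Of the 37 keratin genes, 19 lie on chromosome 11 and 18 on chromosome 15, the sites of the type I and type II clusters. Krt18 was the 1 type I gene on chromosome 15. The type I genes numbered 20 and the type II genes 16, and Krt88 was given no type. Counts were found for 35 of them in at least 1 library, and Krt24 and Krt77 had 0 counts in all 12. The filter on low counts passed 20 genes to the test. The 17 others reached at most 0.167 FPKM, in Krt6b in Taurine 3, and at most 33 counts in all libraries together. FPKM is the fragment count scaled to the length of the gene and to the library total, the unit in which levels of different genes are compared here. In only 11 keratin genes did the mean reach 1 FPKM in any group.

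**Figure D1:**
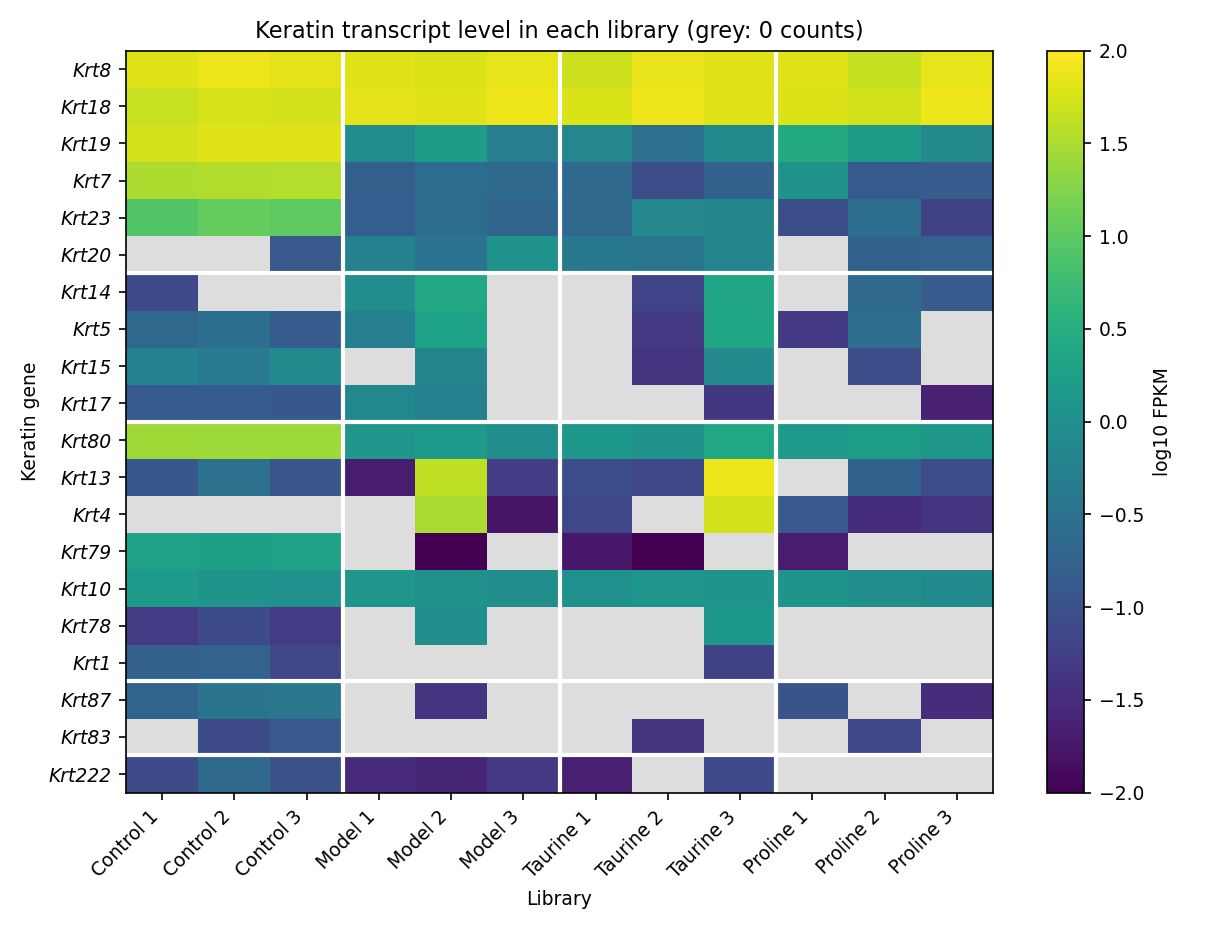
Level of the 20 tested keratin genes (rows, grouped by role) in the 12 libraries (columns, grouped by white lines) as log10 FPKM, with grey for 0 counts. Krt8 and Krt18 are high in every library, Krt19, Krt7, Krt80, Krt23 and Krt79 are high in the 3 Control libraries, and Krt4 and Krt13 are high in Model 2 and Taurine 3.

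Krt8, the type II chain of simple epithelia, and Krt18, its type I partner, were abundant in normal lung and in every tumour. Krt8 measured 62.9, 78.8 and 68.8 FPKM in the 3 Control libraries, 64.6, 61.2 and 69.9 in Model, 48.7, 72.8 and 65.0 in Taurine, and 64.5, 44.0 and 70.0 in Proline. Krt18 measured 46.3, 57.7 and 53.7 FPKM in Control, 68.1, 63.2 and 78.4 in Model, 59.8, 79.7 and 64.3 in Taurine, and 62.0, 53.2 and 78.2 in Proline. The Krt8 values of the 4 groups overlapped, while the 3 Model values of Krt18 lay above the 3 Control values.

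Neither chain passed edgeR's quasi-likelihood test between Model and Control. The log2 fold change of Krt8 was -0.22 (SE 0.19, 95% interval -0.63 to 0.19, adjusted p = 0.339) and that of Krt18 was 0.30 (SE 0.16, 95% interval -0.05 to 0.65, adjusted p = 0.129). Krt18 was called higher by limma on log2(FPKM + 1), at 0.40 with an adjusted p of 0.0367, and its adjusted p ranged from 0.0347 to 0.364 over the 20 alternatives. Liver and kidney tubule also make simple keratins. The Model libraries, Taurine 1 and Taurine 2, which were high in Alb or Kap, lay between 48.7 and 72.8 FPKM of Krt8. Taurine 3 and the Proline libraries, with Kap between 1.04 and 6.81 FPKM, lay between 44.0 and 70.0. The part of these tissues in the levels was not tested. In whole tissue, fewer cells of a type and less RNA per cell cannot be told apart.

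The Krt8 to Krt18 ratio of FPKM, a measure added after the values were seen, was 1.36, 1.36 and 1.28 in Control, 0.948, 0.968 and 0.892 in Model, 0.814, 0.913 and 1.01 in Taurine, and 1.04, 0.826 and 0.895 in Proline. Every tumour value lay below every Control value. An exact two-sided permutation test of Model against Control gave p = 0.1, the smallest that 3 against 3 allows, and 0.4 after adjustment over 4 comparisons. Krt8 shares 26.9% of its 50-base stretches with the pseudogene Krt8-ps, which stood between 0.572 and 1.70 FPKM in all libraries, and how reads of these stretches were counted is not known, so its count is uncertain.

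Krt19, a type I simple keratin without the tail domain of the others, was the second highest keratin of normal lung by deposited FPKM. This rank depends on the gene length used, which relative to Krt18 was 1.3 in the deposited FPKM and 1.1 for the longest transcript. Krt19 measured 54.5, 65.4 and 62.7 FPKM in Control against 0.885, 1.59 and 0.510 in Model, 0.718, 0.320 and 0.795 in Taurine, and 2.68, 1.49 and 0.752 in Proline. It was 66.2-fold lower in Model than in Control (log2 fold change -6.05, SE 0.57, adjusted p = 3.73e-06). Krt7, a type II chain of ducts, airways and alveolar epithelium, measured 32.5, 34.4 and 35.8 FPKM in Control, 0.163, 0.256 and 0.235 in Model, 0.229, 0.0907 and 0.175 in Taurine, and 1.14, 0.135 and 0.141 in Proline. It was 169-fold lower in Model (log2 fold change -7.40, SE 0.85, adjusted p = 1.91e-05). For both genes no tumour library came near a Control library, and Proline 1 was the highest tumour library.

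Krt80, a type II keratin found in many epithelia, measured 26.7, 25.9 and 26.0 FPKM in Control, 1.22, 1.47 and 0.954 in Model, 1.36, 1.12 and 2.48 in Taurine, and 1.46, 1.70 and 1.33 in Proline. It had the smallest adjusted p of the keratins and was 23.5-fold lower in Model (log2 fold change -4.55, SE 0.29, adjusted p = 1.64e-07). Krt23, a type I simple keratin, measured 8.30, 11.5 and 10.3 FPKM in Control, 0.154, 0.260 and 0.194 in Model, 0.227, 0.707 and 0.676 in Taurine, and 0.0905, 0.275 and 0.0597 in Proline. It was 52.4-fold lower in Model (log2 fold change -5.71, SE 0.62, adjusted p = 1.2e-05). Neither gene overlapped between Control and any tumour group.

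Krt79, a type II keratin of skin appendages, measured 1.96, 1.81 and 2.02 FPKM in Control and at most 0.0212 in any tumour library. All 4 of its Model counts came from Model 2. It was 582-fold lower in Model (log2 fold change -9.18, SE 1.51, adjusted p = 0.000315), and without Model 2 the fitted value was -12.66. Wherever a group has 0 counts, as here, the fitted value depends on the prior count and is no bound. Krt1, the type II chain of the upper skin layers, had 59, 68 and 26 counts in Control and 0 in each Model library, so it was at least 58.7-fold lower against a floor of 3 counts over the group (adjusted p = 0.023). Its call was lost when Control 1, Control 2 or any 1 Model library was left out, with adjusted p between 0.0505 and 0.0544, and its adjusted p ranged from 0.000548 to 0.0544 over the 20 alternatives.

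These 6 genes were the members called between Model and Control, all lower and none higher. Of all 23191 genes tested, 58.1% were called in that comparison, 29.3% lower and 28.8% higher, so 6 of 20 called lower was close to the share of all genes. The median log2 fold change was -0.92 over the 20 tested members and -0.03 over all genes. The groups did not overlap in 10 members, 2 above and 8 below Control, against 69.1% of all genes. Without Model 2 and Taurine 3, 9 members were called, all lower, against 6605 lower and 6295 higher of all 24100 genes tested. The added genes were Krt15, Krt78 and Krt87. Model 2 and Taurine 3 were left out for their stratified genes. The added genes had 0 counts in Model 1 and Model 3, so their calls follow from that choice and are no separate result. By limma on log2(FPKM + 1), 10 were called, 2 of them higher, Krt18 and Krt20. Of all 23191 genes, limma called 7282 lower and 7444 higher.

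**Figure D2:**
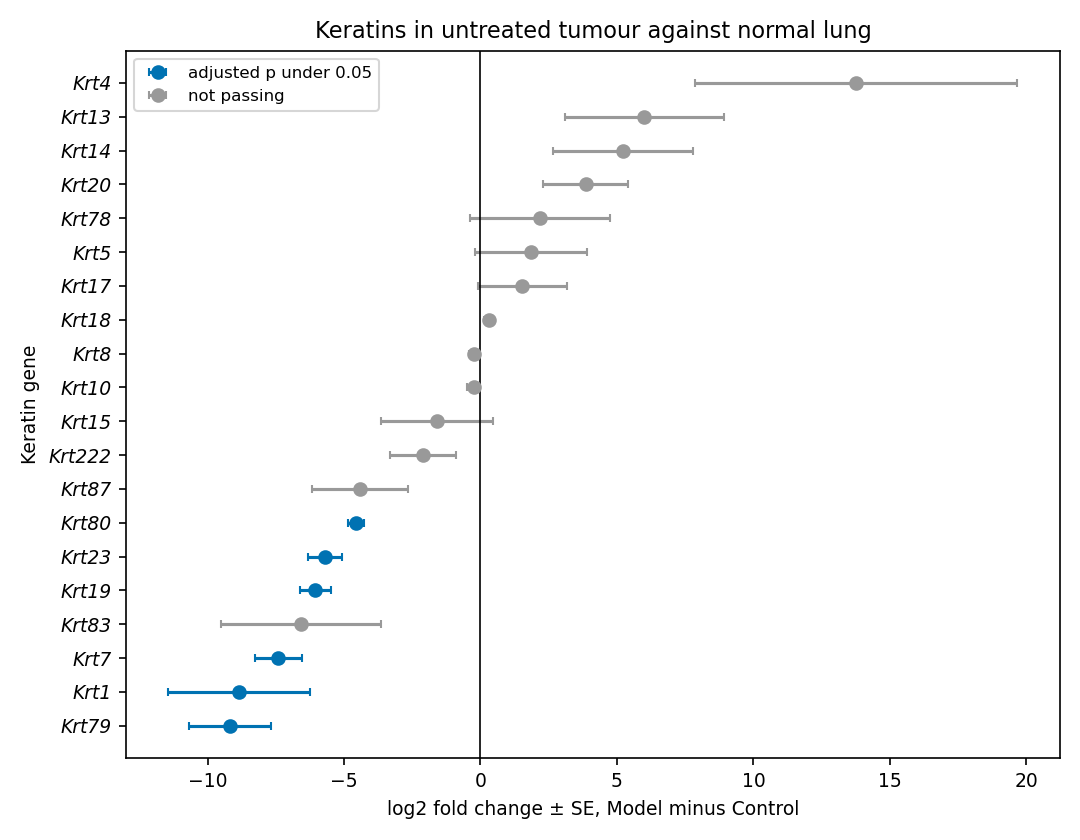
Log2 fold change of Model against Control with its SE (edgeR) for the 20 tested keratin genes, blue where the adjusted p was under 0.05. The 6 called genes lie left of 0, Krt8, Krt18 and Krt10 lie near 0, and the fitted values of genes with 0 counts in a group (Krt4, Krt1, Krt83) depend on the prior count.

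Krt8, Krt18 and Krt7 are shown by the sequence before their starts because they stood at opposite ends, with Krt8 and Krt18 high in every tumour library and Krt7 called lower. The stretches come from RefSeq on build GRCm38.p6, read 5′ to 3′ on the strand of the gene, and bases inside an annotated exon of a protein-coding transcript were left out. They span chr15:102004483-102004592 on the minus strand for Krt8, chr15:102027966-102028179 on the plus strand for Krt18 and chr15:101412153-101412401 on the plus strand for Krt7. Capitals mark GGGCGG on either strand, the letters of a GC box.
Krt8: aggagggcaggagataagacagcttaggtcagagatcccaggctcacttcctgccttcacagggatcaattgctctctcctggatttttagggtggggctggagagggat
Krt18: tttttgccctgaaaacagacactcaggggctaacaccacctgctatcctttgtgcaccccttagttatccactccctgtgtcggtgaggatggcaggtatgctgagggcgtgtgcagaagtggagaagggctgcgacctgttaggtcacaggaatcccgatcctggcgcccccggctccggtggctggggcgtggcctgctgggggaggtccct
Krt7: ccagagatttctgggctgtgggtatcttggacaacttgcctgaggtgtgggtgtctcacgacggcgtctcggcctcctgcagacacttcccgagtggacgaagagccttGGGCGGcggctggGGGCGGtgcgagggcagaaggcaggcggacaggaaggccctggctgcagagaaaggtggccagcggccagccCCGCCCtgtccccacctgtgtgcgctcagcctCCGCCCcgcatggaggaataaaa

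Krt7 held 4 GGGCGG matches in the 250 bases before its start, at 141, 128, 56 and 24 bases, and 16 CpG sites, the most of the 11 tested members that matched the RefSeq table. No other of these 11 members held that motif, which occurs on either strand in 32.7% of the 32851 windows of all genes. The tested members without a window were not searched. In the full 250 bases Krt18 held 12 CpG sites, Krt23 5 and Krt8 3, against a median of 6 over all windows. The printed stretches of Krt18 and Krt8 lack the exon bases nearest the start. They hold 8 CpG sites in 214 bases and 0 in 110 bases. Of the other 2 motifs searched on both strands, TATAAA lay before Krt10 and Krt20 (12.4% of all windows) and TGANTCA, the site of AP-1 factors, lay 196 bases before Krt13 (6.75% of all windows). None of the 11 members held matches of 2 of these motifs, and a match or its absence describes this window alone.

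Krt8 and Krt18 made up most of the keratin transcripts in most tumour libraries. Summed over the 37 genes, keratin FPKM was 236, 279 and 263 in Control, 139, 209 and 152 in Model, 113, 157 and 274 in Taurine, and 133, 103 and 152 in Proline. Taurine 3 reached the Control range and Model 2 was the next highest tumour library. Krt8 and Krt18 together made up 47.3% ± 1.46 (SD, n = 3) of the sum in Control, and between 94.5% and 97.6% in the 7 tumour libraries other than Model 2 (59.6%) and Taurine 3 (47.2%). Krt19, Krt7, Krt80, Krt23 and Krt79 made up 51.5% ± 1.43 in Control, 1.56% ± 0.279 in Model, 1.73% ± 0.458 in Taurine and 3.01% ± 1.34 in Proline. The first keratin by FPKM was Krt8 in each Control library and in Proline 1, Krt13 in Taurine 3, and Krt18 in the other 7 tumour libraries.

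The summed type I and type II levels were close to each other in every group. The type I to type II ratio of FPKM was 0.943 ± 0.0416 in Control, 1.13 ± 0.033 in Model, 1.18 ± 0.0628 in Taurine and 1.11 ± 0.125 in Proline (SD, n = 3). The Control ratio depended on the gene length used. The lengths behind the deposited FPKM, relative to Krt18, came to 4.94 for Krt7 and 4.46 for Krt80, where the longest annotated transcripts give 2.85 and 2.73. With transcript lengths the Control ratio was 0.774 and the summed level 313. The Control share of Krt8 and Krt18 was then 39.1%, and that of Krt19, Krt7, Krt80, Krt23 and Krt79 was 59.8%.

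**Figure D3:**
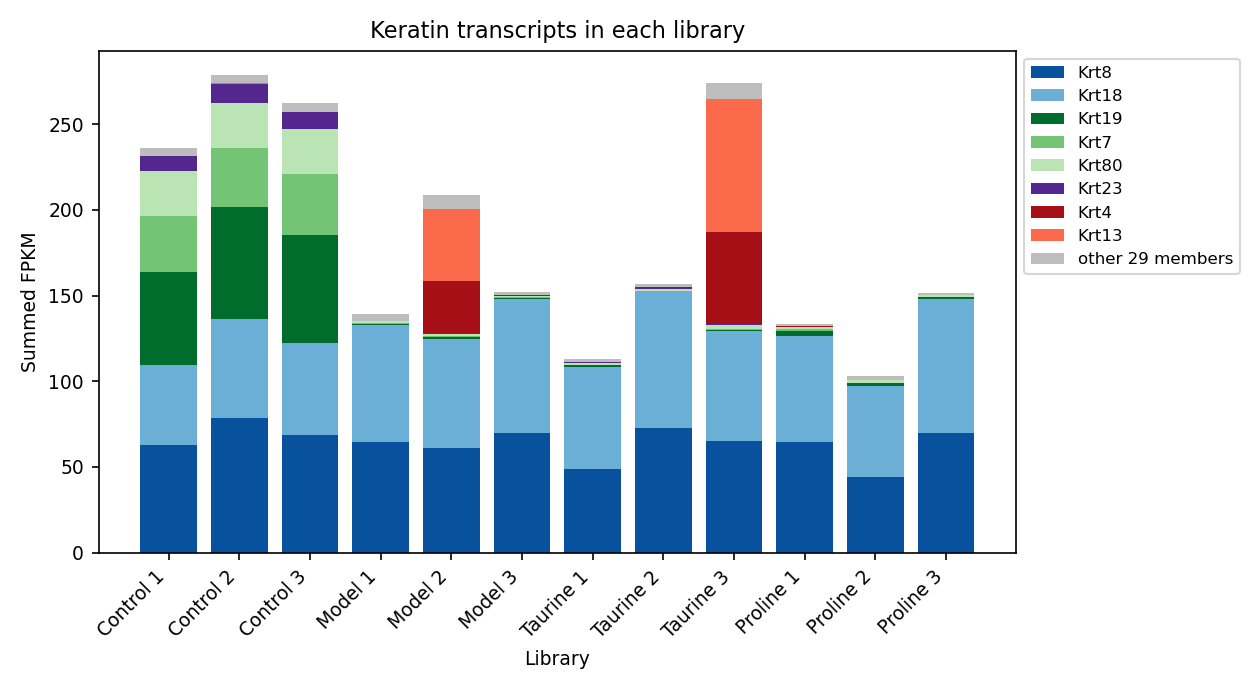
Summed FPKM of the keratin genes in each library, stacked by gene from a baseline of 0. Control bars hold Krt8, Krt18, Krt19, Krt7, Krt80 and Krt23, most tumour bars are nearly all Krt8 and Krt18, and Model 2 and Taurine 3 add Krt4 and Krt13.

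Markers of lung epithelium fell beside the keratins that fell, in a comparison where 29.3% of all genes tested were called lower and 28.8% higher. Between Model and Control, 8 of 8 markers of alveolar type 1 cells fell (Hopx -5.28, Rtkn2 -4.25 on the log2 scale), as did 9 of 9 of alveolar type 2 cells (Abca3 -3.03), 6 of 7 of club cells (Aldh1a1 -6.43) and 8 of 8 of ciliated cells (Tppp3 -5.47), with median log2 fold changes of -8.14, -11.77, -6.43 and -7.68. Their summed FPKM was 1470 to 1610 in Control and 18.7 to 42.9 in tumour for type 1 cells, 14600 to 17000 and 403 to 860 for type 2 cells, 12600 to 14600 and 6.39 to 370 without Lyz2, which leukocytes also express, 45200 to 62900 and 2.82 to 289 for club cells, and 365 to 425 and 4.35 to 12.4 for ciliated cells. Sftpc, which defines type 2 cells, was at 0 in Model 2. Proline 1, the tumour library with the most Krt19 and Krt7, also held 237 FPKM of Sftpc, where the other 8 tumour libraries held at most 17.2. The part of these cells in the keratin levels was not tested.

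Krt4 and Krt13, the pair of stratified linings, were high in 1 Model and 1 Taurine library. Krt4 measured 0 FPKM in the 3 Control libraries, 0, 30.6 and 0.0163 in Model, 0.0746, 0 and 53.5 in Taurine, and 0.132, 0.0339 and 0.0395 in Proline. Krt13 measured 0.121, 0.318 and 0.115 FPKM in Control, 0.0200, 41.7 and 0.0532 in Model, 0.0868, 0.0745 and 78.1 in Taurine, and 0, 0.174 and 0.0886 in Proline. Neither passed the test between Model and Control (edgeR adjusted p = 0.0737 and 0.1). Without Model 2 the log2 fold change of Krt4, fitted against 0 counts, went from 13.77 to 3.69 (adjusted p = 0.77) and that of Krt13 turned from 6.0 to -2.37. Without Taurine 3 both were called higher, with adjusted p of 0.0281 and 0.0415, although the Model and Control values were the same and the groups overlapped. Over their alternatives the adjusted p ranged from 0.0281 to 0.77 for Krt4 and from 0.0415 to 0.557 for Krt13.

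The same libraries held more of other stratified keratins. Krt5, the basal type II chain, measured 0.218, 0.288 and 0.146 FPKM in Control, 0.538, 2.10 and 0 in Model, 0, 0.0472 and 2.35 in Taurine, and 0.0470, 0.266 and 0 in Proline. Krt14, its type I partner, measured 0.0761, 0 and 0 FPKM in Control, 0.908, 2.52 and 0 in Model, 0, 0.0642 and 2.27 in Taurine, and 0, 0.235 and 0.141 in Proline. Krt78, a type II keratin of stratified epithelium, stood at 0.936 and 1.38 FPKM in Model 2 and Taurine 3 and at 0 in the 7 other tumour libraries. Between Model and Control the adjusted p was 0.464 for Krt5, 0.103 for Krt14 and 0.498 for Krt78 in edgeR's test. Without Model 2 the log2 fold change went from 1.85 to 0.16 for Krt5 (adjusted p = 0.963) and from 5.23 to 3.91 for Krt14 (adjusted p = 0.243), and Krt78 turned from 2.18 to -7.25.

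Taurine 3 held 1.75 times the Krt4 and 1.87 times the Krt13 of Model 2, against 1.12 times the Krt5 and 0.901 times the Krt14. The 11 cornified envelope genes with at least 20 counts in both libraries had ratios of 0.861 (Sfn) to 3.79 (Sprr2a1) with a median of 1.88, and the 5 such airway basal cell markers had ratios of 0.882 to 3.15 with a median of 1.12. The ranges overlap, and the difference between the lists was not tested. Sprr3, a cornified envelope protein, stood at 6.16 and 12.9 FPKM in these 2 libraries, at most 0.0361 in the other tumours and at 0 in Control. Together 6 keratins (Krt4, Krt13, Krt78, Krt5, Krt14 and Krt15), grouped after their values were seen, made up 37.6% of the keratin sum in Model 2 and 50.5% in Taurine 3, and at most 1.05% in any other library. Without them the summed level was 138, 130 and 152 FPKM in Model and 113, 157 and 136 in Taurine.

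**Figure D4:**
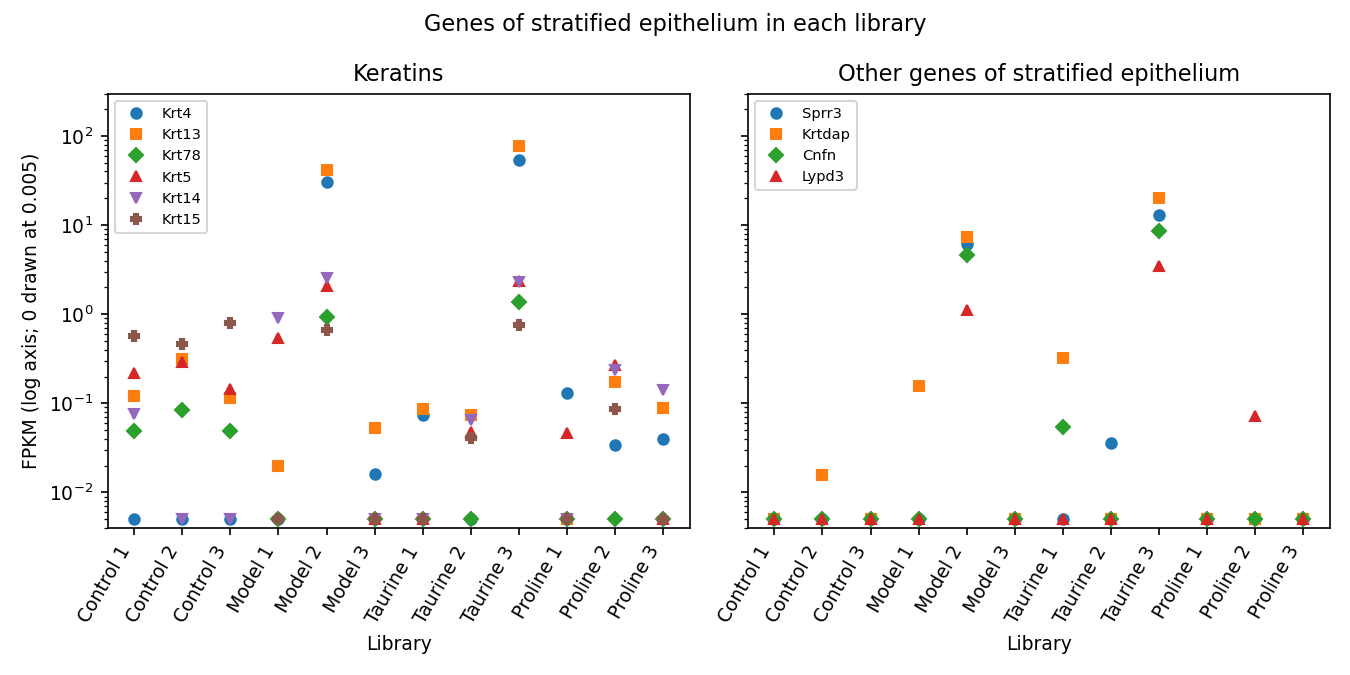
FPKM on a log axis of 6 stratified keratins (left) and 4 other genes of stratified epithelium (right) in each library, with 0 drawn at 0.005. Model 2 and Taurine 3 stand apart for Krt4, Krt13 and Krt78 and for Sprr3, Krtdap, Cnfn and Lypd3.

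The 9 matched markers of oesophagus and skin summed to 26.1 FPKM in Model 2 and 53.0 in Taurine 3, to between 2.17 and 4.92 in the other tumours and to between 23.0 and 25.7 in Control. None of the 7 tested was called between Model and Control (median -0.34), and Ly6d had the smallest p (log2 fold change -2.84, adjusted p = 0.0689). Without Model 2 and Taurine 3, 3 of 5 tested fell (Dmkn, Ly6d and Ly6g6c) and the median was -3.89. These libraries were left out because they held such genes, so the recount is no separate result. In Control the sum came mainly from Ly6d, Dmkn and Sbsn, while Lypd3, Dsg3 and Cnfn were at 0 there. Airway basal cell markers summed to 24.2 to 26.5 FPKM in Control and 27.1 to 61.4 in tumour, most of it Il33 (16.4 to 17.8 and 25.6 to 57.6). Without Il33 the sum was 6.84 to 8.64 FPKM in Control, 4.6 in Model 2, 10.2 in Taurine 3 and at most 1.5 in the other tumours. In edgeR's test Il33 was called higher (1.02) and Sox2 lower (-6.27) of 8 tested (median 0.72). Over all genes tested, 28.8% were called higher and 29.3% lower. Of the 4 thymic epithelial markers tested, Ccl25, Aire and Prss16 were called higher and Ccl21a lower, the last not without Model 2 (median 1.80). The Model means of Ccl25, Aire and Prss16 were low, at 0.947, 0.298 and 0.488 FPKM. All 6 matched markers summed to 36.9 to 56.7 FPKM in Control, with Ccl21a alone at 36.3 to 56.2, and to 1.60 to 13.1 in tumour. Foxn1 and Psmb11, which were not tested, reached at most 0.0297 FPKM in any library. The part of any such tissue in the keratin levels was not tested.

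Keratins of other roles were low. Krt10, the type I chain of the upper skin layers, measured 1.40, 1.19 and 1.07 FPKM in Control, 1.28, 1.09 and 0.953 in Model, 1.03, 1.27 and 1.18 in Taurine, and 1.17, 0.950 and 0.779 in Proline. Its groups overlapped (Model against Control -0.25, 95% interval -0.80 to 0.29, edgeR adjusted p = 0.405). Krt20, a type I keratin of intestine and urinary tract, measured 0, 0 and 0.130 FPKM in Control, 0.579, 0.329 and 1.10 in Model, 0.419, 0.376 and 0.641 in Taurine, and 0, 0.172 and 0.184 in Proline. Every Model value lay above every Control value, at a log2 fold change of 3.85 (SE 1.55, edgeR adjusted p = 0.0534). Krt20 passed the threshold in 7 of 20 alternatives, among them DESeq2 (adjusted p = 0.024), and without Control 3, which held all 20 of its Control counts, the fitted value, against 0 counts, was 9.76 (adjusted p = 0.0058). Its adjusted p ranged from 0.00149 to 0.129 over these alternatives.

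Krt15, a type I keratin of basal cells, measured 0.566, 0.458 and 0.787 FPKM in Control and, among tumours, 0.662 in Model 2, 0.757 in Taurine 3 and at most 0.0866 elsewhere. Its log2 fold change of -1.59 (edgeR adjusted p = 0.535) became -9.57 without Model 2, with an adjusted p of 0.0456 and a range over the 20 alternatives of 0.0225 to 0.728. Krt17, a type I keratin induced in injured and basal epithelium, measured 0.727 and 0.568 FPKM in Model 1 and Model 2, between 0.128 and 0.137 in Control, and at most 0.0440 elsewhere. Model 1 thus held Krt17, Krt14 and Krt5 with 0 counts of Krt4 and 3 of Krt13. Krt87, a hair keratin, measured 0.192, 0.340 and 0.395 FPKM in Control and 0, 0.0417 and 0 in Model, and missed the threshold (log2 fold change -4.42, edgeR adjusted p = 0.0567). Krt87 passed in 8 of 20 alternatives, where its adjusted p ranged from 0.000175 to 0.129.

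No keratin gene passed the threshold between a treated group and Model or between the treated groups. In edgeR's test 0 of the 20 tested members were called between Taurine and Model, where 0.0% of all genes were called, 0 between Proline and Model, where 0.0% were called, and 0 between Taurine and Proline, where 0.0431% were called (0.0302% higher and 0.0129% lower). At an unadjusted p under 0.05 there were 3, 3 and 7 members, against 1574, 3106 and 3334 of all 23191 genes. DESeq2 called 0, 1 and 1 members, against 88, 770 and 1078 of all 23191 genes. Taurine and Proline share the Model libraries as their reference. The groups did not overlap in 0 members for Taurine against Model (12.1% of all genes), in 2 for Proline against Model (17.9%), Krt20 and Krt222, and in 1 for Taurine against Proline (16.5%), Krt20. The median log2 fold change of the tested members was 0.06, -0.32 and 1.24, against 0.00 over all genes in each. Krt4, Krt13 and Krt78 enter these medians with Model counts almost all from Model 2 and Taurine counts almost all from Taurine 3. Medians without these libraries are not given. Krt13, Krt78 and Krt1 were among the 7 members at an unadjusted p under 0.05 in edgeR's test between Taurine and Proline.

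Between Taurine and Model, the smallest p-values belonged to Krt23 (log2 fold change 1.43, SE 0.53, edgeR adjusted p = 0.705), Krt17 (-4.72, adjusted p = 0.705) and Krt1 (5.98, adjusted p = 0.727). All 24 Taurine counts of Krt1 came from Taurine 3. Between Proline and Model they belonged to Krt222, a keratin-like gene (0 counts in Proline, at least 10.2-fold lower, adjusted p = 0.224), Krt17 (-5.31, adjusted p = 0.292) and Krt13 (-7.16, adjusted p = 0.358). The Krt13 value became 1.21 without Model 2. DESeq2 called Krt222 lower in Proline (adjusted p = 0.0414, range over alternatives 0.0414 to 0.747).

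Between Taurine and Proline, Krt23 was 3.73-fold higher in Taurine without passing edgeR's test (log2 fold change 1.90, SE 0.55, adjusted p = 0.167). Its FPKM of 0.227, 0.707 and 0.676 in Taurine overlapped the 0.0905, 0.275 and 0.0597 in Proline, and DESeq2 called it (adjusted p = 0.0144, range over alternatives 0.0144 to 0.399). Krt222 followed with 6.29 (adjusted p = 0.178) and Krt19 with -1.42 (SE 0.50, adjusted p = 0.235), which was -0.85 without Proline 1. For the abundant pair the intervals were narrow. The 95% interval of the log2 fold change against Model ran from -0.44 to 0.38 for Krt8 and from -0.35 to 0.34 for Krt18 in Taurine, and from -0.52 to 0.30 and from -0.44 to 0.26 in Proline.

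Several neighbours on the chromosome took different courses. Krt80 and Krt7 lie side by side on chromosome 15 and both fell in Model. Krt79 and Krt78 lie between Krt4 and Krt8, with Krt18 next, and this run held Krt79, which fell in Model, Krt4 and Krt78, highest in Model 2 and Taurine 3, and the pair that was not called. On chromosome 11, Krt13, Krt15 and Krt19 are consecutive, and of these Krt19 fell. Krt14 shares 11.4% of its 50-base stretches with Krt16, Krt5 shares 6.98% with Krt6a and Krt17 3.66% with Krt14, so their counts may be split. Krt18, Krt19, Krt7, Krt80, Krt23, Krt79, Krt4 and Krt13 share none with another gene whose name starts with Krt. Genes of other names were not searched.

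Genes that anchor keratin filaments are set here against all genes tested, of which 29.3% were called lower and 28.8% higher. Of 10 tested desmosome genes, which bind filaments at cell contacts, 5 fell and 0 rose between Model and Control (median -1.03). Perp and Pkp1 of this list were highest among tumours in Model 2 and Taurine 3, and without these libraries 6 of 9 tested fell (median -2.16). The added gene was Perp, so this recount too follows in part from the libraries left out. Jup, plakoglobin, went from 64.5 ± 3.26 to 1.46 ± 0.533 FPKM (SD, n = 3; log2 fold change -5.58, edgeR adjusted p = 2.78e-06), and Pkp4 and Dsg2 fell by 1.25 and 4.78. Of 12 hemidesmosome and linker genes, 9 fell and 2 rose (median -2.94). The laminin chain Lama3 fell by 6.73. The plakin linkers of this list went both ways. Plec and Dst rose by 1.15 and 1.24 on the log2 scale, with Plec at 24.1 ± 0.501 FPKM in Model. Ppl, Evpl and Eppk1 fell by 3.29, 3.56 and 3.94, with Evpl near the threshold (edgeR adjusted p = 0.0482). Of 15 epithelial adhesion genes, 14 fell and 0 rose (median -5.85), with the smallest adjusted p in Tjp3 (-5.16), Ocln (-3.52) and Cldn3 (-7.66).

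A list of 20 epithelial regulators held transcription factors and the splicing factors Esrp1 and Esrp2. Of these 20 genes, 15 fell, Esrp1 and Esrp2 among them, and 2 rose, Tfap2a and Tfap2c (median -4.68). Without Model 1 or without Model 2 the call of Tfap2c was lost. Foxa1 and Klf4 fell by 5.49 and 4.20, and Tfap2a, a factor of surface ectoderm, rose from 0.0941 ± 0.017 to 4.21 ± 0.174 FPKM (log2 fold change 5.33, edgeR adjusted p = 4.91e-09). Of 11 cornified envelope genes tested, 2 fell, Sfn and Ivl, and 0 rose (median -0.36). Their summed level was 31.1 to 39.9 FPKM in Control, 37.4 in Model 2, 75.5 in Taurine 3 and 4.22 to 6.86 in the other 7 tumours. Without Model 2 and Taurine 3, libraries left out because they held such genes, 5 of 9 tested fell (median -1.84), which is no separate result. A list of other intermediate filament genes also held Tchh, whose product is filament-associated. Of its 16 tested genes, 8 rose and 4 fell, Tchh among the latter (median 0.24). Vim, the filament protein of mesenchymal cells, rose from 91.8 ± 11.2 to 442 ± 20.9 FPKM (log2 fold change 2.15, edgeR adjusted p = 1.36e-08), with Lmna and Lmnb1 of the nuclear lamina at 1.55 and 1.69, and Nes and Synm fell by 1.21 and 5.40. Of 19 tested genes linked to keratins by binding, processing or name alone, 6 rose and 7 fell (31.6% and 36.8%, near the shares of all genes, median 0.11). Among them Krtcap3 fell by 3.22.

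Markers of mesothelium, endothelium, leukocytes, fibroblasts, liver and kidney were also counted between Model and Control, where 28.8% of all genes were called higher and 29.3% lower. Of 8 mesothelial markers 2 rose, Bnc1 (4.47) and Msln (1.61), and 4 fell, among them Upk1b (-5.53), with a median of -3.37. All 8 endothelial markers fell (median -4.83). Of 8 leukocyte markers 2 rose and 3 fell (median -1.12), and of 8 fibroblast markers 3 rose, led by Lum (4.21), and 4 fell (median -0.12). Of 10 liver markers Ahsg rose (2.46) and Hp fell (-4.31), with a median of 2.38. Ahsg stood at 3.73 and 5.45 FPKM in Model 1 and Model 2, 0.134 in Model 3 and 0.229 to 0.692 in Control, and its call was lost without Model 1 or without Model 2. Of 10 kidney markers Lrp2 and Cdh16 fell (-3.17 and -3.73), with a median of 0.84. No gene of any of the 20 lists was called between Taurine and Model, Proline and Model or Taurine and Proline in edgeR's test.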

How the data were processed

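Gene-level RNA-seq values of 12 mouse libraries were used. Per the file headers, the authors deposited a raw count and an FPKM value for each gene and library; 99.9% of the FPKM values lay within 1% of the count over gene length and a library constant. Per the submitters' processing notes, reads were placed on mm10. Which aligner and counting program were run, and whether strand was used, is not given in the sources used here. The positions in the table appear to follow another build and were not used.

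Counts were tested with edgeR 4.0.16 (quasi-likelihood, TMM scaling, filter by expression, R 4.3.3), with 12 libraries in 1 fit and a contrast for each comparison. Tests were two-sided with Benjamini-Hochberg adjustment over 23191 genes and a threshold of 0.05, and the procedure was tested on simulated data. The SE is the log2 fold change over the square root of F. Alternatives were DESeq2 1.42.0, limma 3.58.1 on log2(FPKM + 1) and log2(FPKM + 0.1), median-ratio scaling, other filters with a minimum of 10 counts in the stricter, fits of the 2 groups compared, and leaving out libraries. FPKM levels are given as deposited. Depth was 56542745 to 69456490 counts, and floors cover counting error only. Replicates are numbered in the order of the sample names.

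Members called in a comparison or with a mean of at least 1 FPKM in some group were to be named with all values, with the 3 smallest p-values where none was called and at most 3 called genes per direction in each of 20 lists. Krt5, Krt15, Krt17, Krt20, Krt78 and Krt87, and the listed plakins Ppl, Evpl and Eppk1, were named after their values were seen. The members and lists were chosen with earlier results of these data known. The 95% interval of a fold change uses the t quantile at the test's degrees of freedom. Lengths and shared 50-base stretches came from GENCODE M21 transcripts, promoter windows of 250 bases from RefSeq. Shared stretches were searched only among genes whose name starts with Krt, without keratin-associated proteins.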

Additional observations from a re-analysis of the deposited data

How the results depend on the processing

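Of the keratins that fell, Krt19, Krt7, Krt80, Krt23 and Krt79 passed the threshold in each alternative that gave a value for them; DESeq2 gave no adjusted p for Krt7. The number of members called between Model and Control, 6, was 10 by limma with either pseudocount and 5 to 8 with 1 library left out. Over all 23191 genes limma called 7444 higher and 7282 lower with a pseudocount of 1, and 7619 and 7240 with 0.1. With 1 library left out, 6243 to 6673 genes were called higher and 6131 to 7038 lower, of 24199 to 24498 tested. No member was called in the other 3 comparisons when any library was left out. DESeq2 called 1 member in Proline against Model and 1 in Taurine against Proline, where it called 770 and 1078 of all 23191 genes. Without Model 2, or without both Model 2 and Taurine 3, signs turned in Model against Control for Krt13 (-2.37 and -2.36) and Krt78 (-7.25 and -7.24) and in Proline against Model for Krt13 (1.21 and 1.20). With any 1 library left out, these values ranged from -2.37 to 6.60 and from -7.25 to 2.77 in Model against Control and from -8.06 to 1.21 in Proline against Model. Krt1 in Taurine against Model went to 0.00 without Taurine 3, alone or with Model 2, since both groups then had 0 counts, and ranged from 0.00 to 6.55 with any 1 library left out. The cause of the other changes was not tested. With 1 Control, Model, Taurine or Proline library left out, the summed level was 249 to 271, 146 to 181, 135 to 215 and 118 to 143 FPKM, the type I to type II ratio 0.930 to 0.967, 1.12 to 1.15, 1.15 to 1.21 and 1.05 to 1.17, the Krt18 share 20% to 20.6%, 39.6% to 50.2%, 37.2% to 52.0% and 49.0% to 51.6%, and the Krt8 to Krt18 ratio 1.32 to 1.36, 0.920 to 0.958, 0.864 to 0.962 and 0.861 to 0.968. Counts without length scaling gave type I to type II ratios of 0.375, 0.825, 0.857 and 0.768, Krt8 to Krt18 ratios of 1.82, 1.28, 1.24 and 1.25, and Krt18 shares of 9.83% in Control and 40.6% in Proline. Transcript lengths gave Control a sum of 313, a ratio of 0.774 and a Krt18 share of 16.7%. Without the 6 stratified keratins the type I to type II ratio was 1.10 in Model and 1.12 in Taurine. Without both Model 2 and Taurine 3, the genes called between Model and Control came to 5 in place of 2 cornified envelope genes, 1 in place of 2 liver markers and 3 in place of 0 oesophagus and skin markers. With Model 1 or Model 2 left out, 1 liver marker and 0 to 1 oesophagus and skin markers were called. Leaving out Model 2 and Taurine 3 together, the counts of listed genes without libraries, the transcript lengths, the removal of the stratified keratins and the Krt8 to Krt18 ratio were chosen after seeing the data. No paired analysis was possible because the labels give the groups no shared replicate numbers. With 3 libraries a group, members under about 1 FPKM rest on few counts, and for these the fitted fold change depends on the prior count.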
